A study of Mus musculus with 16 samples.

Results

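The 9 genes described here encode transcription factors and enzymes of sterol and fatty acid synthesis that are linked to the sterol regulatory element binding proteins (SREBPs): Srebf1, Srebf2, Acly, Acaca, Fasn, Scd1, Scd2, Lss and Cyp51. They were chosen by name, and every probe whose RefSeq accession maps to one of them was read. The array carried 16 such probes. Of these, 10 probes passed the filter on dim signal, and all 9 genes kept at least 1 probe, out of 13725 genes tested in all.

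The hearts came from 3-month-old male C57Bl/6 mice in 4 groups of 4: AKT1+AKT2 double knockout (DKO), AKT2 KO, AKT1 KO and control. AKT1 and AKT2 are protein kinases that act downstream of insulin and growth factor receptors. In the knockout mice, exons of Akt1, of Akt2 or of both genes are flanked by loxP sites, and all groups including control carry the heterozygous MHC-mercremer transgene, a tamoxifen-dependent Cre recombinase driven by the cardiomyocyte promoter of alpha myosin heavy chain. Mice of all groups received 5 daily injections of 500 µg 4-OH-tamoxifen, and RNA was taken from the heart apex 21 days after induction. Sample titles also read untreated, and the protocol states that nothing more was done to alter heart function. The promoter directs recombination to cardiomyocytes, so the other cells of the apex were not targeted, and each array measured the mixture. Each group had 1 array per mouse.

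SREBPs are made as precursors held in the endoplasmic reticulum membrane by SCAP and INSIG proteins. When sterols are low, or when insulin signalling through AKT and mTORC1 is active, they are carried to the Golgi, cut, and sent to the nucleus, where they bind sterol response elements together with NF-Y and SP1. SREBP1 is best known for driving genes of fatty acid synthesis and desaturation, and SREBP2 for genes of cholesterol synthesis and uptake. The heart takes up most of its fatty acids from the blood and makes little of its own, but it uses malonyl-CoA, the product of acetyl-CoA carboxylase, to hold back mitochondrial fatty acid entry.

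NF-Y binds the motif CCAAT, a usual neighbour of the sterol response element. RefSeq promoter windows (build GRCm38.p6, 250 bases before to 50 bases after a start site) were found for 7 of the 9 genes, as 9 windows, since Srebf1 has 3. Scd1 and Scd2 have no entry. The 4 windows below belong to a fatty acid gene that was higher in DKO hearts (Acly), both sterol enzymes, which moved in opposite directions (Lss and Cyp51), and a gene that passed no test (Fasn). They are shown so that the letters near the start sites of genes with different outcomes can be set side by side. Each is printed on the strand of its gene, and capitals mark CCAAT or its reverse complement ATTGG.
Acly (chr11:100527951-100528250, minus strand): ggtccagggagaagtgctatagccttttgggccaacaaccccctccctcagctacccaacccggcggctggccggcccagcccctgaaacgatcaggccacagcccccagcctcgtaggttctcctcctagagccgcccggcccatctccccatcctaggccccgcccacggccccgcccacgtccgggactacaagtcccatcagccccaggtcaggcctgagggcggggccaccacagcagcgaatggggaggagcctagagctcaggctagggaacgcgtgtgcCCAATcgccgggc
Lss (chr10:76531355-76531654, plus strand): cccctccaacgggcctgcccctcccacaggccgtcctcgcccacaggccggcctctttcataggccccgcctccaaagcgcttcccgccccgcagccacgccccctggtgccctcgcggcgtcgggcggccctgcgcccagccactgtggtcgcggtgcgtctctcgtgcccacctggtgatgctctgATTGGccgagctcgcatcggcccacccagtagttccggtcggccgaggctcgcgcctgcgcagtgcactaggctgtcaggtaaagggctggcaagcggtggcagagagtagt
Cyp51 (chr5:4104648-4104947, minus strand): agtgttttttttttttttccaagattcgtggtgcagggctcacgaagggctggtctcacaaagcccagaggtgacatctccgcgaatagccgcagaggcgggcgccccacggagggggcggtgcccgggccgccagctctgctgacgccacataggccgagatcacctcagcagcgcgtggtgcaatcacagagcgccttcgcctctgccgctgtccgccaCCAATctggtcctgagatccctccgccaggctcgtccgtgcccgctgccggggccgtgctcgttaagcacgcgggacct
Fasn (chr11:120824498-120824797, minus strand): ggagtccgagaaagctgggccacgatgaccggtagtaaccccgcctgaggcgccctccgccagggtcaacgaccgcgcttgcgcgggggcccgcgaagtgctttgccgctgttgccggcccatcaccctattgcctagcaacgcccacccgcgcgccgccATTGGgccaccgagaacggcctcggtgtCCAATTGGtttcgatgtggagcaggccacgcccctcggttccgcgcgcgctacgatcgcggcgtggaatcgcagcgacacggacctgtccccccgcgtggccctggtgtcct

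CCAAT occurred on either strand in 7 of the 9 windows and in 6 of the 7 genes, against 37.4% of all 32851 RefSeq promoter windows of the same length. Acly held it 38 to 42 bases after the start site. Lss held it on the opposite strand, 62 to 58 bases before the start. Cyp51 held it 29 to 25 bases before the start. Fasn held 3 copies, of which 2 overlapped (62 to 58 and, on the opposite strand, 59 to 55 bases before the start). The exact string TCACNCCAC, taken as the sterol response element and searched on both strands, was in 0 of the 9 windows and in 1.24% of all windows. Sterol response elements that differ from this string were not searched for. The E-box CACGTG was in 0 of the 9 windows and in 7.15% of all windows. CCAAT was found in genes of each outcome, higher, lower and not called, and was missing from the window of Acaca. A match or its absence describes only the letters of these windows.

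A level is the log2 intensity after background subtraction, relative to the 75th percentile of its own array, so that 0 is the intensity at that percentile. Levels of different probes were compared only to choose the brightest probe of a gene and, after centring, to find the genes nearest to a member. They were added up for cell type markers. The 75th percentile ranged from 492 to 809 intensity units, and the share of the 56605 probes that were well above background from 43.1% to 54.0%. The Akt2 probe averaged 2.91 ± 0.10 in DKO hearts, 2.54 ± 0.09 in AKT2 KO hearts, 4.78 ± 0.18 in AKT1 KO hearts and 4.91 ± 0.06 in control hearts (SD, n = 4 each), which fits the labels. Akt1 averaged 5.11 ± 0.08 in DKO hearts, 5.17 ± 0.10 in AKT2 KO hearts, 5.23 ± 0.26 in AKT1 KO hearts and 5.13 ± 0.03 in control hearts (SD, n = 4 each). Whether the Akt1 probe lies in the deleted exons is not given in the sources used here, so it checks no label. DKO replicate 3 stood apart, at 78.6 on the first principal component against 42.5 to 47.8 for the other DKO arrays and −22.9 to −12.3 for the remaining 12. The members and the counts of the gene lists in DKO hearts are therefore given with and without it. Each group also sat in 1 column of the slides, so array column and genotype cannot be told apart. Each of the 2 slides held 2 arrays of every group, and the difference of each member between DKO and control hearts is also given within slides.

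In DKO hearts 6 of the 9 genes changed against control. Scd1, Lss, Scd2, Acly and Acaca were higher, between 1.24-fold and 3.40-fold, and Cyp51 was lower. Srebf1, Srebf2 and Fasn passed no test there. Of all 13725 genes, 45.6% passed the same test in this comparison (limma, Benjamini-Hochberg adjusted p below 0.05), 24.4% as higher and 21.2% as lower. The median difference of the 9 genes was 0.31 on the log2 scale, beside 0.02 over all genes. The 2 groups did not overlap for 4 members (Scd1, Lss, Acly and Cyp51), which is near the 44.4% of all genes for which they did not overlap. The calls of Scd2 and Acaca were close to the threshold and not stable. Without DKO replicate 3 all 6 genes passed, with adjusted p of 0.0071 or less, in a setting that called 7020 of all 13725 genes, against 6257 with it.

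**Figure D1:**
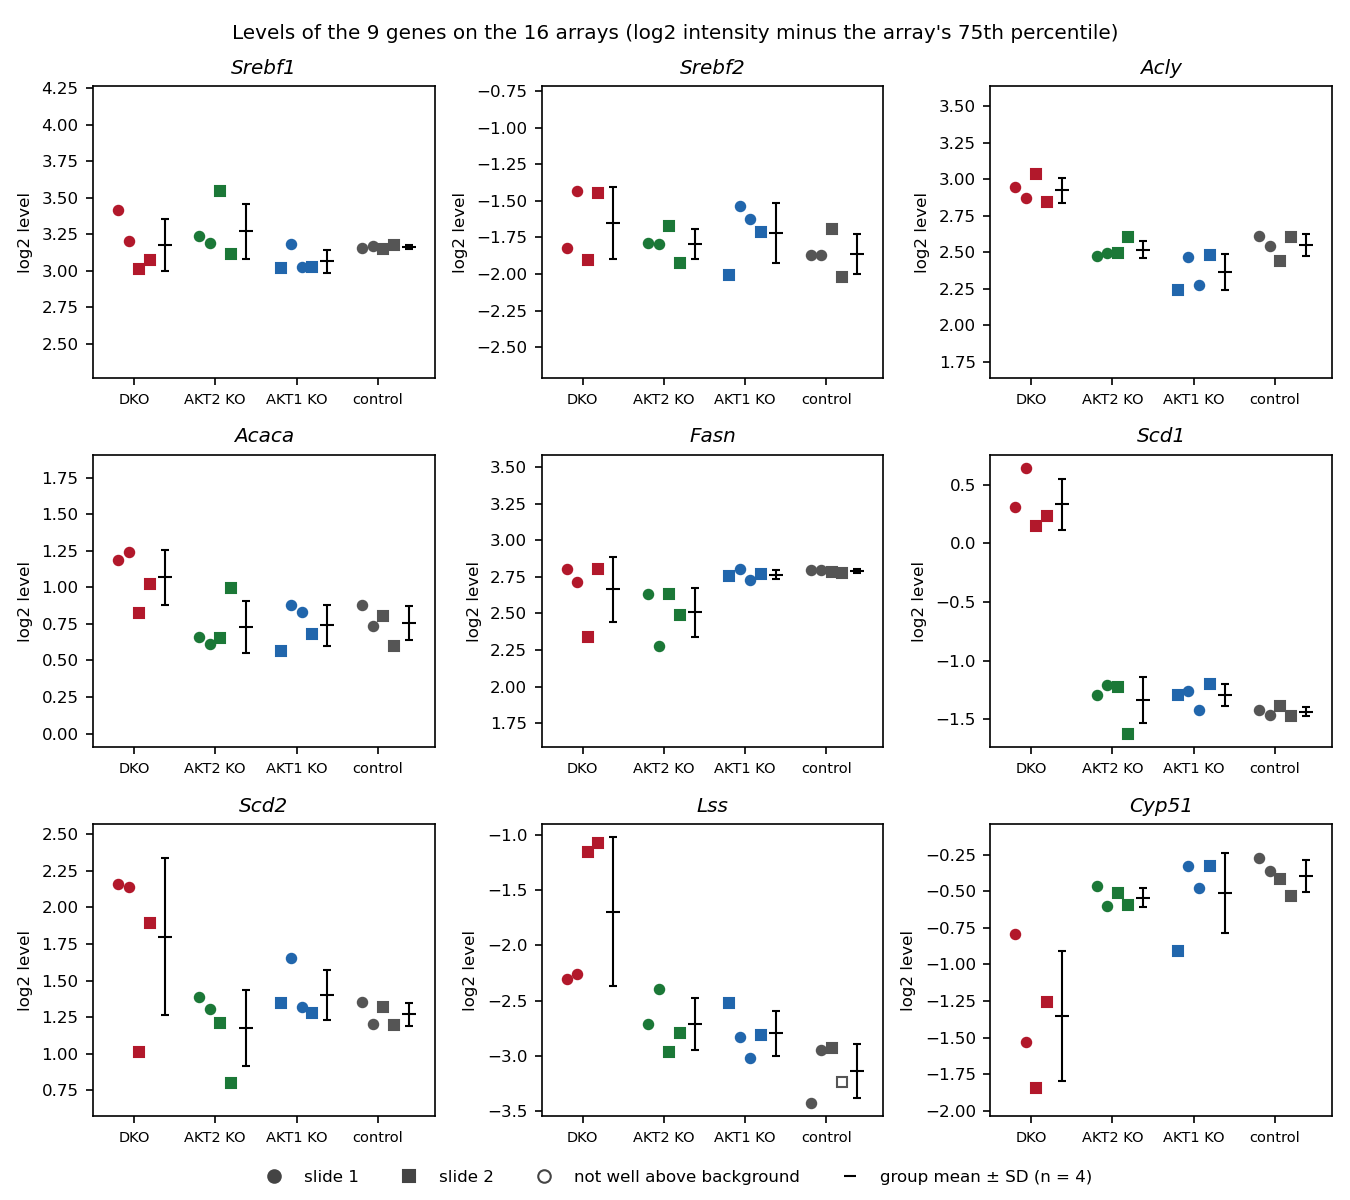
Log2 level of each of the 9 genes (y axis, log2 intensity minus the array's 75th percentile) on every array, by group (x axis); circles are slide 1, squares slide 2, open symbols are not well above background, and bars give the group mean ± SD (n = 4). The 4 DKO arrays lie above all 4 control arrays for Scd1, Lss and Acly and below them for Cyp51. No single knockout difference from control passed the test, although the 4 AKT2 KO arrays lie below all 4 control arrays for Fasn.

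In single knockout hearts none of the 9 genes passed the test. In AKT2 KO hearts limma called 0 of 9 members, and 1 member had an unadjusted p below 0.05; 0.131% of all genes were called (0.0729% as higher and 0.0583% as lower). Fasn was the 1 member whose AKT2 KO and control arrays did not overlap, against 7.62% of all genes. In AKT1 KO hearts limma likewise called 0 of 9, again with 1 unadjusted p below 0.05, beside 0.794% of all genes, and 0 of 9 whose AKT1 KO and control arrays did not overlap, beside 9.19% of all genes. With so few genes called at all, 0 of 9 is near the background in both comparisons. AKT2 KO against AKT1 KO gave 0 of 9 as well, with 1 unadjusted p below 0.05, beside 0.896% of all genes. Against the single knockouts, DKO hearts differed in 6 of 9 members from AKT2 KO (5 higher and 1 lower, beside 42.1% of all genes) and in 5 of 9 from AKT1 KO (4 higher and 1 lower, beside 47.0% of all genes, 26.7% as higher and 20.3% as lower). Scd2 was the gene that passed against AKT2 KO and missed against AKT1 KO. These comparisons share the DKO arrays with the comparison to control.

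**Figure D2:**
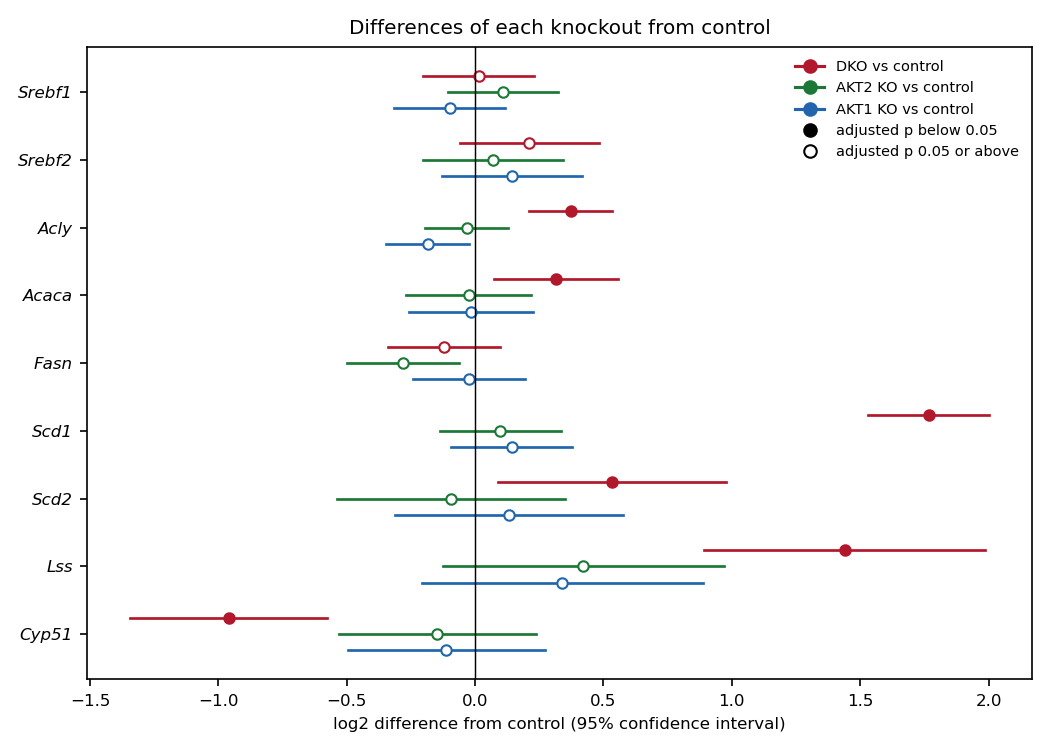
Log2 difference from control (x axis, with 95% confidence interval) of each gene (rows) in DKO, AKT2 KO and AKT1 KO hearts; filled points passed the adjusted p threshold of 0.05. All 6 filled points are DKO points, with Scd1 farthest right at 1.77 and Cyp51 farthest left at −0.96.

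Srebf1 encodes SREBP1, and its transcript is itself a target of SREBP1c, LXR and insulin signalling. Its level was 3.42, 3.20, 3.01 and 3.07 in DKO hearts, 3.24, 3.19, 3.54 and 3.11 in AKT2 KO hearts, 3.02, 3.18, 3.03 and 3.03 in AKT1 KO hearts and 3.16, 3.17, 3.15 and 3.18 in control hearts. The groups overlapped throughout, and DKO and AKT2 KO arrays were spread more widely than control arrays. The difference between DKO and control was 0.01 ± 0.10 (SE), with a 95% confidence interval of −0.20 to 0.23 (adjusted p = 0.928, limma). It was 0.07 without DKO replicate 3 (adjusted p = 0.591). The sign differed between slides, with 0.15 on slide 1 and −0.12 on slide 2, and neither passed (adjusted p = 0.272 and 0.638). Whether the probe separates the SREBP1a and SREBP1c transcripts is not given in the sources used here.

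Srebf2 encodes SREBP2. Its level was −1.82, −1.43, −1.91 and −1.45 in DKO hearts, −1.79, −1.79, −1.67 and −1.92 in AKT2 KO hearts, −2.01, −1.53, −1.63 and −1.71 in AKT1 KO hearts and −1.87, −1.87, −1.69 and −2.02 in control hearts. DKO replicates 2 and 4 were above every control array, and the other 2 DKO arrays lay among them. The DKO difference of 0.21 ± 0.13 (SE) had an interval of −0.06 to 0.48 (adjusted p = 0.19, limma). Slide 1 gave 0.24 and slide 2 gave 0.18. Without DKO replicate 3 the difference was 0.30 (adjusted p = 0.0600). With both DKO replicate 3 and AKT1 KO replicate 1, the array with the second lowest weight, left out, it was 0.30 with an adjusted p of 0.0288, a setting chosen after seeing the data.

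Acly encodes ATP citrate lyase, which turns cytosolic citrate into acetyl-CoA and is itself a substrate of AKT. Its level was 2.94, 2.87, 3.03 and 2.84 in DKO hearts, 2.47, 2.50, 2.49 and 2.60 in AKT2 KO hearts, 2.24, 2.47, 2.28 and 2.48 in AKT1 KO hearts and 2.61, 2.54, 2.44 and 2.60 in control hearts. All 4 DKO arrays were above all 12 others. Acly rose 1.29-fold in DKO hearts (log2 difference 0.37 ± 0.08 SE, adjusted p = 0.0011, limma). Without DKO replicate 3 the difference was 0.34 (adjusted p = 0.0017). It was 0.33 on slide 1 (adjusted p = 0.0269) and 0.42 on slide 2, where 2 arrays a group left an adjusted p of 0.108. In AKT1 KO hearts the difference had the other sign, −0.18 ± 0.08 (SE), and did not pass after adjustment (unadjusted p = 0.0285, adjusted p = 0.545). The departure from additivity, DKO minus AKT2 KO minus AKT1 KO plus control, was 0.59 ± 0.11 (SE, adjusted p = 0.0013).

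Acaca encodes acetyl-CoA carboxylase 1, which makes malonyl-CoA for fatty acid synthesis. Its brightest probe read 1.19, 1.24, 0.82 and 1.02 in DKO hearts, 0.66, 0.61, 0.66 and 0.99 in AKT2 KO hearts, 0.57, 0.88, 0.83 and 0.68 in AKT1 KO hearts and 0.88, 0.74, 0.81 and 0.60 in control hearts. Of the 4 DKO arrays, replicate 3 lay within the control range and the other 3 above it. The difference was 0.31 ± 0.11 (SE, adjusted p = 0.0348, limma), or 0.40 without DKO replicate 3 (adjusted p = 0.0071). This call was lost when any 1 of control replicates 2, 3 and 4 or DKO replicates 1 and 2 was left out (adjusted p 0.0524 to 0.105) and under several other settings. With the replicate number as a block the adjusted p was 0.0568, and with a block for the slide and its row, which control, AKT2 KO and DKO arrays of 1 number share, it was 0.0429. The difference was 0.41 on slide 1 (adjusted p = 0.0089) and 0.22 on slide 2 (adjusted p = 0.398). A second kept Acaca probe differed by 0.13 between DKO and control, with an adjusted p of 0.52 in a fit over all kept probes, so the 2 probes do not both show the change. The remaining 2 Acaca probes were well above background on 1 and 0 of 16 arrays. The departure from additivity of Acaca was 0.35 (adjusted p = 0.117), and passed in 4 of 32 other settings, among them without DKO replicate 3 (0.44, adjusted p = 0.0319) and without AKT2 KO replicate 4 (0.44, adjusted p = 0.0489).

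Fasn encodes fatty acid synthase, the enzyme that builds palmitate. Its level was 2.81, 2.71, 2.34 and 2.81 in DKO hearts, 2.63, 2.28, 2.63 and 2.49 in AKT2 KO hearts, 2.75, 2.80, 2.73 and 2.77 in AKT1 KO hearts and 2.80, 2.80, 2.78 and 2.78 in control hearts. The control arrays were tightly grouped, the 4 AKT2 KO arrays all lay below them, and DKO replicate 3 lay far below the other DKO arrays. In AKT2 KO hearts the difference from control was −0.28 ± 0.10 (SE), with an unadjusted p of 0.0158 and an adjusted p of 1.0 (limma over all genes). In DKO hearts the difference from control was −0.12 ± 0.10 (SE), with an interval of −0.34 to 0.10 (adjusted p = 0.35), and −0.01 without DKO replicate 3. Slide 1 gave −0.04 and slide 2 gave −0.21. DKO hearts exceeded AKT2 KO hearts by 0.16 (adjusted p = 0.234), which became 0.27 with an adjusted p of 0.0109 without DKO replicate 3. That difference was 0.30 on slide 1 and 0.01 on slide 2 (adjusted p = 0.0953 and 0.976). The departure from additivity of Fasn did not pass (0.18, adjusted p = 0.38), but did so without DKO replicate 3 (0.29, adjusted p = 0.0431).

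Scd1 and Scd2 encode stearoyl-CoA desaturases, which put the first double bond into palmitate and stearate. The genes lie on the same chromosome, 19. Scd1 read 0.31, 0.64, 0.14 and 0.23 in DKO hearts, −1.29, −1.20, −1.23 and −1.63 in AKT2 KO hearts, −1.29, −1.26, −1.42 and −1.20 in AKT1 KO hearts and −1.42, −1.46, −1.39 and −1.47 in control hearts. The lowest DKO array was above the highest of the other 12 by more than the spread within any group. Scd1 rose 3.40-fold in DKO hearts (log2 difference 1.77 ± 0.11 SE, adjusted p = 3.51e-08, limma), and 1.83 on the log2 scale without DKO replicate 3. Slide 1 gave 1.92 and slide 2 gave 1.62. In AKT2 KO hearts the difference from control was 0.10, with an interval of −0.14 to 0.33, and in AKT1 KO hearts it was 0.14, with an interval of −0.09 to 0.38. The departure from additivity was 1.53 ± 0.16 (SE, adjusted p = 1.66e-05), and 2 of the 9 members, Scd1 and Acly, departed upward, beside 26.0% of all genes in either direction, 15.9% upward and 10.1% downward.

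Scd2 read 2.16, 2.14, 1.01 and 1.90 in DKO hearts, 1.39, 1.31, 1.21 and 0.80 in AKT2 KO hearts, 1.35, 1.65, 1.32 and 1.28 in AKT1 KO hearts and 1.36, 1.20, 1.32 and 1.20 in control hearts. Of the DKO arrays, 3 were above all others and replicate 3 was below every control array. The difference from control was 0.53 ± 0.21 (SE, adjusted p = 0.0487, limma), and 0.80 without DKO replicate 3 (adjusted p = 0.00021). It was 0.87 on slide 1 (adjusted p = 0.0028) and 0.20 on slide 2 (adjusted p = 0.661), the slide that held DKO replicate 3. The departure from additivity was 0.49 with all arrays (adjusted p = 0.234) and 0.76 without DKO replicate 3 (adjusted p = 0.0051). The call against control was lost when any 1 of 14 of the 16 arrays was left out (adjusted p 0.0517 to 0.138) and under several scalings. So 1 array decides whether Scd2 is called against AKT1 KO and in the departure from additivity.

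Lss encodes lanosterol synthase, which closes the rings of the first sterol of the pathway. Its brightest probe read −2.30, −2.26, −1.16 and −1.07 in DKO hearts, −2.71, −2.40, −2.96 and −2.79 in AKT2 KO hearts, −2.52, −2.83, −3.02 and −2.81 in AKT1 KO hearts and −3.43, −2.94, −2.93 and −3.24 in control hearts. All DKO arrays were above all others, and DKO replicates 3 and 4, both on slide 2, were well above DKO replicates 1 and 2, both on slide 1. Lss rose 2.71-fold in DKO hearts (log2 difference 1.44 ± 0.26 SE, adjusted p = 0.00038, limma), and by 1.26 on the log2 scale without DKO replicate 3 (adjusted p = 0.0010). The difference was 0.91 on slide 1 (adjusted p = 0.0090) and 1.97 on slide 2 (adjusted p = 0.0028). Against AKT2 KO hearts it was 1.02 over all arrays (adjusted p = 0.0053), 0.27 on slide 1 (adjusted p = 0.273) and 1.76 on slide 2 (adjusted p = 0.0045). In AKT2 KO hearts the difference from control was 0.42 and in AKT1 KO hearts 0.34, with intervals of −0.13 to 0.97 and −0.21 to 0.89. The probe is dim, and it lay well above background on 3 of the 4 control arrays and on all 12 knockout arrays.

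The other 2 Lss probes were too dim to be tested. The second read −3.00, −3.09, −1.64 and −3.67 in DKO hearts and −3.29, −3.91, −4.13 and −3.71 in control hearts, well above background on 3 DKO and 2 control arrays. On this probe DKO replicate 3 was high and DKO replicate 4 was low, unlike the brightest probe, where both were high. The third was well above background on 2 of 4 DKO arrays and on none of the other 12.

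Cyp51 encodes lanosterol 14-alpha-demethylase, the next enzyme after lanosterol synthase. Its level was −0.79, −1.53, −1.84 and −1.25 in DKO hearts, −0.46, −0.60, −0.51 and −0.59 in AKT2 KO hearts, −0.91, −0.33, −0.48 and −0.32 in AKT1 KO hearts and −0.27, −0.36, −0.41 and −0.53 in control hearts. All DKO arrays were below all control and AKT2 KO arrays, and AKT1 KO replicate 1 lay between 2 of the DKO arrays. Cyp51 fell by 0.96 ± 0.18 (SE) on the log2 scale in DKO hearts (adjusted p = 0.00057, limma), and by 0.80 without DKO replicate 3 (adjusted p = 0.00097). Both slides gave a drop, of −0.84 on slide 1 and −1.07 on slide 2. The departure from additivity was −0.70 ± 0.25 (SE) and lay at the threshold (adjusted p = 0.0551). It passed in 7 of 32 other settings, among them with the slide as a block (adjusted p = 0.0428), with array weights (−0.64, adjusted p = 0.0121), without DKO replicate 1 (−0.89, adjusted p = 0.0066) and without AKT1 KO replicate 1 (−0.83, adjusted p = 0.0215). A second, dim Cyp51 probe was well above background on 1 DKO, 2 AKT2 KO, 3 AKT1 KO and 3 control arrays and was not tested. Thus adjoining steps of 1 pathway moved in opposite directions in the same hearts.

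**Figure D3:**
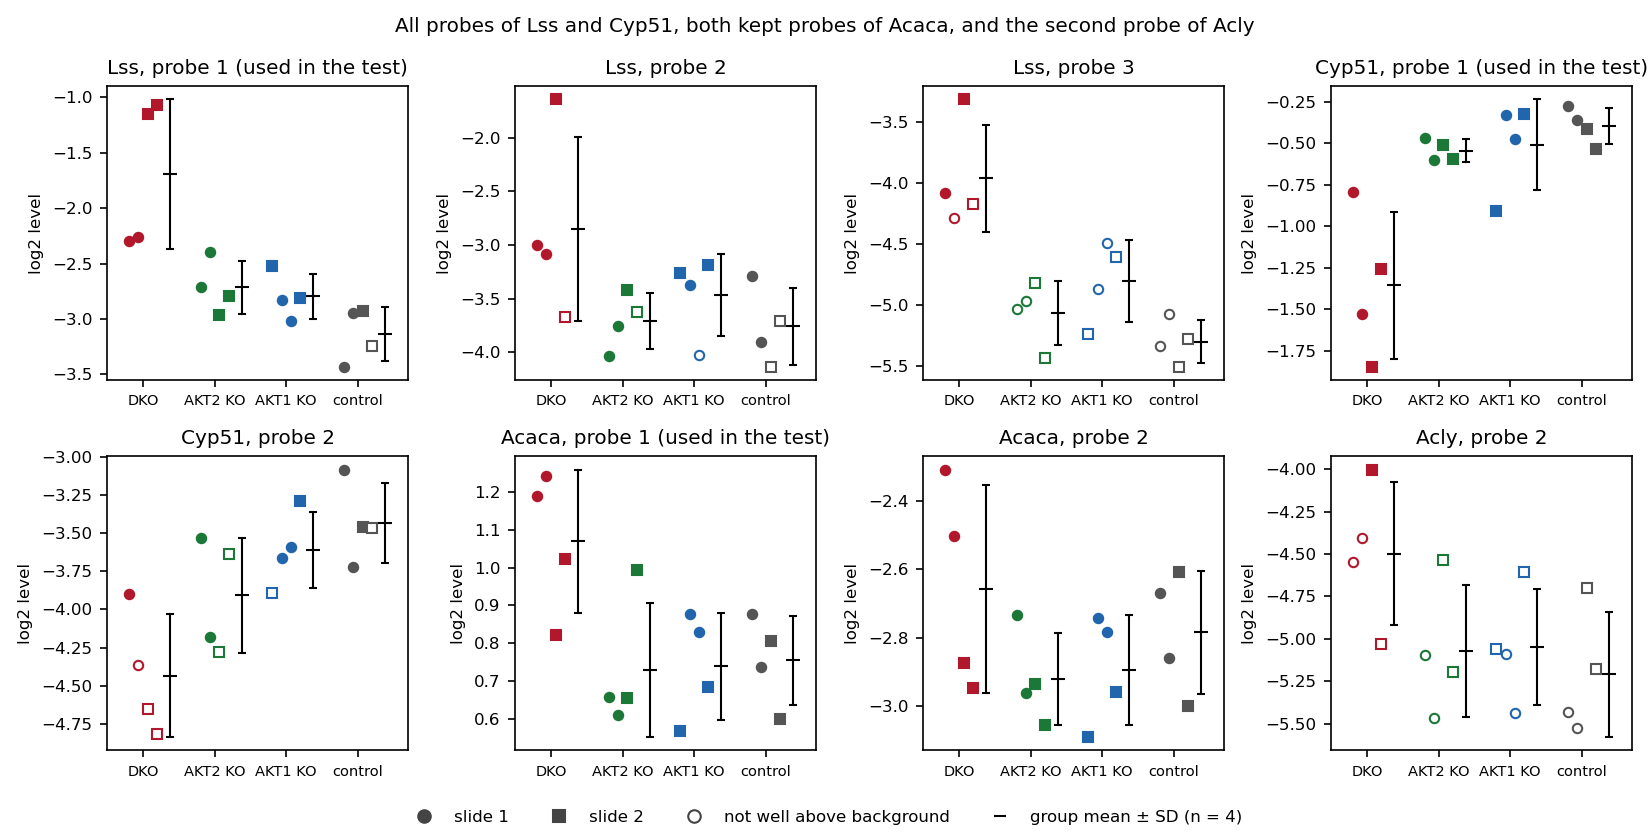
Log2 level (y axis) by group (x axis) on all 3 Lss probes, both Cyp51 probes, both kept Acaca probes and the second Acly probe; circles are slide 1, squares slide 2, open symbols are not well above background, bars are the mean ± SD (n = 4). The panels show that the high Lss values of DKO replicates 3 and 4 coincide on the first probe but not on the second, and that the Acaca difference of 0.31 on the first probe is 0.13 on the second.

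Markers of cell types moved in the same hearts, where 24.4% of all genes rose and 21.2% fell. Of 8 fibroblast markers 8 rose in DKO hearts, with a summed linear level of 281 to 349 against 180 to 192 in control hearts, in units of each array's 75th percentile. The brightest probes weigh most in such sums. Of 8 cardiomyocyte markers 7 fell, with a sum of 1986 to 2374 in DKO hearts against 2682 to 3098 in control hearts. Of 8 macrophage markers 4 rose, with a sum of 30 to 42 in DKO hearts against 26 to 29 in control hearts. Of 5 tested Schwann cell and neuron markers 4 rose, with a sum of 14.0 to 30.1 in DKO hearts against 7.4 to 8.0 in control hearts. Among 7 tested smooth muscle and pericyte markers 3 rose and 1 fell (sums 92.3 to 109 in DKO hearts and 106 to 115 in control hearts), among 8 endothelial markers 1 fell (94.7 to 118 and 101 to 117), and of 2 tested mesothelial markers neither passed (1.02 to 2.30 and 1.04 to 1.43). Without DKO replicate 3 the fibroblast, cardiomyocyte, macrophage, Schwann cell and neuron, and mesothelial counts were as given, smooth muscle and pericyte markers gave 4 higher and 1 lower, and endothelial markers 1 higher and 1 lower. The part of these shifts in the changes of the 9 genes was not tested, and in whole apex RNA fewer cells of a type and less RNA per cell cannot be told apart.

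Fat cells are rich in Scd1, Acly and Fasn, so adipocyte markers were read as well. Of 12 listed, 7 could be tested: Cidec and Cfd rose in DKO hearts, Adig and Lep fell, and 3 did not pass. With DKO replicate 3 left out, the counts were 2 higher and 3 lower, and the median of the 7 was −0.30, against −0.09 with it. Their summed level was 120 to 200 in DKO hearts against 122 to 136 in control hearts. Among the untested markers, Retn was well above background on at most 6 of 16 arrays, Pck1 on 2, Adipoq and Plin1 on 1 each and Ucp1 on 0. Cidec, a lipid droplet protein, was not well above background on any control array and was at least 1.93-fold higher in DKO hearts (adjusted p = 0.0056, limma).

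The wider lipid pathway was read from 5 gene lists, whose counts stand beside the 45.6% of all genes called in DKO hearts (24.4% higher and 21.2% lower). Among 17 SREBP processing and partner factors 7 were called in DKO hearts, a share near that background: 2 rose and 5 fell, with a median log2 difference of −0.06. Scap, the SREBP escort protein, rose by 0.32 ± 0.08 (SE, adjusted p = 0.0032, limma). The Scap difference was 0.22 on slide 1 alone and 0.42 on slide 2 alone, and neither passed (adjusted p = 0.0725 and 0.0963). Fbxw7, the ubiquitin ligase subunit that marks nuclear SREBPs for breakdown, fell by 1.25 ± 0.09 (SE, adjusted p = 8.27e-08), the largest change of the list. Rxra, the partner of LXR, fell by 0.34, and Usf2, an E-box factor of lipogenic promoters, fell by 0.45. The calls of Rxra and Usf2 were lost on slide 2 alone (adjusted p = 0.171 and 0.142, limma). Without DKO replicate 3 the list gave 7 higher and 5 lower, and its median was 0.11. The sign of the median rests on that array. So does the count, in a setting where calls over all genes rose as well. In both single knockouts 0 of 17 were called in the main fit. Fbxw7 passed in AKT1 KO hearts without DKO replicate 3 (−0.32, adjusted p = 0.0253, limma) and with array weights (−0.31, adjusted p = 0.0075). Calls over all genes in AKT1 KO hearts were 291 and 822 in these settings, against 109.

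Cholesterol synthesis as a whole did not move one way. Of 18 tested enzymes besides Lss and Cyp51, 4 rose and 3 fell in DKO hearts, a share near the background, and the median difference was −0.16. With DKO replicate 3 left out, 5 rose and 5 fell, and the median was −0.08. Sqle, which makes the epoxide that Lss closes, rose by 0.68 ± 0.15 (SE, adjusted p = 0.0016, limma), and Ebp, a later sterol isomerase, rose by 0.45 ± 0.09 (SE, adjusted p = 0.00084). Fdft1, squalene synthase, fell by 0.70 ± 0.18 (SE, adjusted p = 0.0058), and Pmvk, a mevalonate pathway kinase, fell by 0.66 ± 0.09 (SE, adjusted p = 3.44e-05). On slide 2 alone the calls of Sqle, Ebp and Fdft1 were lost (adjusted p = 0.0523, 0.0706 and 0.0741, limma). Thus along squalene synthase, squalene epoxidase, Lss and Cyp51 the differences in DKO hearts were −0.70, 0.68, 1.44 and −0.96. In both single knockouts 0 of 18 were called.

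Of 15 tested genes of sterol uptake, transport and export, 6 rose and 3 fell, with a median of 0.21. These became 5, 3 and 0.31 without DKO replicate 3. Mylip, a ubiquitin ligase that acts on lipoprotein receptors, rose by 0.89 ± 0.17 (SE, adjusted p = 0.00059, limma), the largest difference of the list. On slide 2 alone the Mylip difference was 0.98 and did not pass (adjusted p = 0.0856). Lrp1, a lipoprotein receptor, rose by 0.64 and Soat1, which esterifies cholesterol, by 0.66. Npc1, which moves cholesterol out of lysosomes, fell by 0.55, and Vldlr, the receptor for triglyceride-rich particles, by 0.46. In both single knockouts 0 of 15 were called in the main fit. With array weights, Vldlr passed in AKT1 KO hearts (−0.20, adjusted p = 0.0397, limma), in a setting with 822 calls over all genes against 109.

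Of 24 tested genes of fatty acid synthesis, elongation and desaturation other than the members, 7 rose and 7 fell in DKO hearts, with a median of −0.02. The counts were again 7 and 7 without DKO replicate 3, and the median was 0.09, so its sign rests on that array. The desaturases Fads2 and Fads3 rose by 0.81 ± 0.09 (SE, adjusted p = 6.69e-06, limma) and 1.05 ± 0.12 (SE, adjusted p = 8.4e-06). Tecr, the last enzyme of the elongation cycle, fell by 1.99 ± 0.14 (SE, adjusted p = 1.12e-07), and Mecr, its counterpart in mitochondrial fatty acid synthesis, by 0.73. Thrsp, a lipogenic nuclear protein known from liver and fat, averaged 3.79 ± 0.31 in AKT1 KO hearts and 2.52 ± 0.07 in control hearts (SD, n = 4 each) and was the gene of this list called in AKT1 KO hearts (1.26 ± 0.20 SE, adjusted p = 0.0056). The AKT1 KO call of Thrsp was lost on slide 1 alone (1.38, adjusted p = 0.230, limma) and on slide 2 alone (1.15, adjusted p = 0.444). Thrsp averaged 1.97 ± 0.32 (SD, n = 4) in DKO hearts and fell there by 0.55 (adjusted p = 0.0341). That DKO call was lost without DKO replicate 3 (adjusted p = 0.0572), without DKO replicate 1 or 4 and without any 1 of the control replicates. In AKT2 KO hearts 0 of 24 were called.

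Of 14 tested glycerolipid synthesis genes, 4 rose and 7 fell in DKO hearts, with a median of −0.39. These became 4, 8 and −0.40 without DKO replicate 3. Dgat2, which adds the last fatty acid to triglyceride, fell by 2.88 ± 0.14 (SE, adjusted p = 4.87e-09, limma), with levels of 4.01 ± 0.26 in DKO hearts and 6.89 ± 0.08 in control hearts (SD, n = 4 each). Gpam, the mitochondrial first acyltransferase, fell by 1.14, and the phosphatidate phosphatase Lpin1 by 0.95. Its relative Lpin3 rose by 1.35 ± 0.09 (SE, adjusted p = 4.91e-08). Lpin3 was also called in AKT1 KO hearts at 0.40 (adjusted p = 0.0493), and that call was lost when most single arrays were left out. In AKT2 KO hearts 0 of 14 were called.

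**Figure D4:**
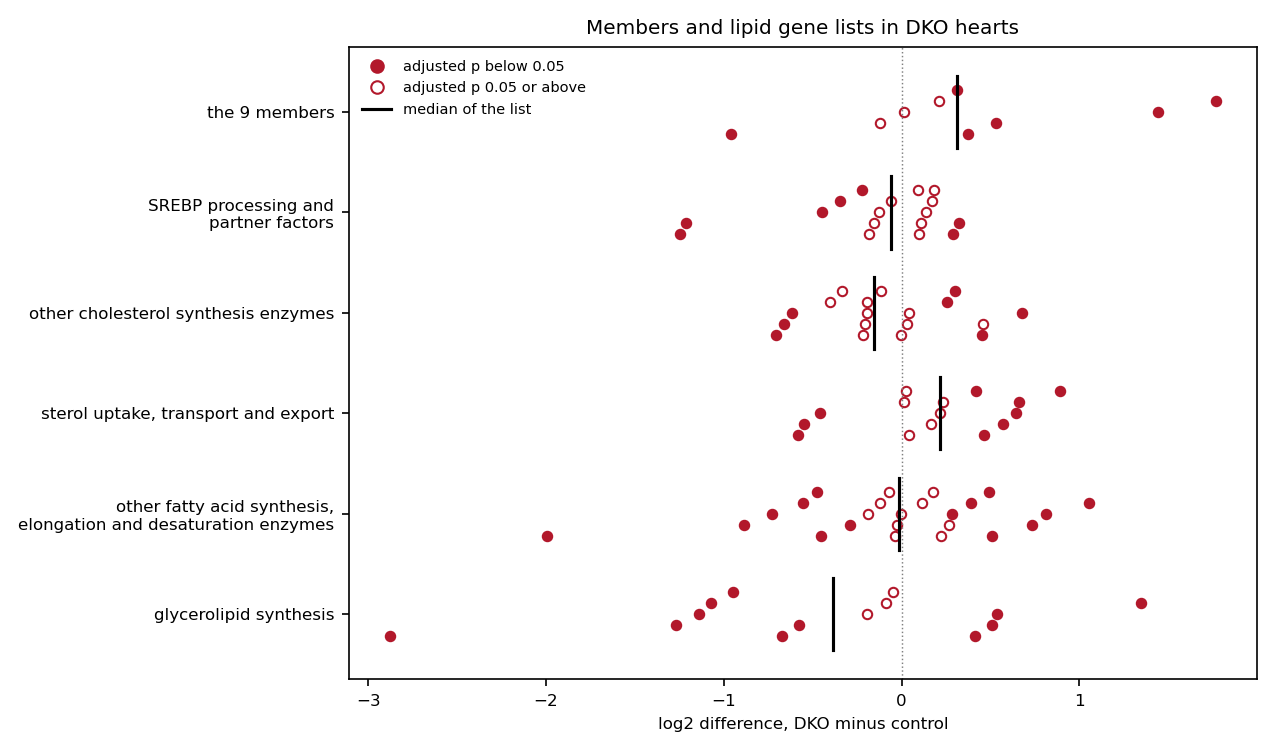
Log2 difference between DKO and control (x axis) of each tested gene in the 9 members and the 5 lipid gene lists (rows); filled points passed the adjusted p threshold of 0.05 and black bars are list medians. Each list holds called genes on both sides of 0, and the medians run from −0.39 for glycerolipid synthesis to 0.31 for the 9 members.

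Each called member was set beside the 3 tested genes whose centred levels over the 16 arrays lay closest to it, by the root mean square (RMS) difference in log2 units. For Scd1 these were Nt5e (0.159), Cadm1 (0.167) and Rcan1 (0.170), which were higher in DKO hearts by 1.72, 1.81 and 2.07. For Acly they included Zfp110 (0.0766) and Ruvbl1 (0.0769). For Acaca they were Macroh2a3 (0.0865), Cars (0.0921) and Mxi1 (0.0942). Members themselves were left out of this search.

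For Scd2 the nearest genes were Mmgt2 (0.141), Prkar2b (0.152) and Cpxm1 (0.157). For Lss they were Tent5a (0.269), Abra (0.283) and Mdfi (0.287), with the widest gaps of the 6 members in log2 units. Gaps were not scaled by the SD of a member over the 16 arrays, which was 0.66 for Lss, 0.20 for Acaca and 0.77 for Scd1. For Cyp51 they were Adhfe1 (0.120), Gstk1 (0.128) and Abat (0.129), which differed between DKO and control hearts by −0.96, −0.96 and −0.95. These RMS values describe likeness over the same 16 arrays, in which DKO and the other groups differ for many genes.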

How the data were processed

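Total RNA (100 ng) from each of 16 heart apices was labelled with Cy3 and hybridised to a 1-colour Agilent array on 2 slides. Per the file headers, the deposited scanner files were made with Feature Extraction 12.0.3.1 and hold the background-subtracted intensity of each spot. The deposited table of the authors' log2 values has a median of 0 for every probe, as tested on its values, and served as an alternative. No sample column was left unused.

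Spots of a probe were averaged without outlier-flagged ones. Log2 intensity minus the array's 75th percentile was used. A probe was kept if some group had it well above background on all 4 of its arrays, and the brightest kept probe stood for a gene. Of 56605 probes 58.3% had a symbol through RefSeq (GRCm38.p6). Groups were taken from the labels. One mean per group was fitted with limma 3.58.1 in R 4.3.3 (with data.table, version 1.17.8) over all 16 arrays, with Benjamini-Hochberg adjustment over 13725 genes in each of 7 comparisons and a threshold of 0.05. The script was tested on simulated data. Per the labels each array is another heart, and their number limits the precision.

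Members and gene lists were chosen with earlier results of these data known. Named genes are Akt1, Akt2, the members, the called genes of each list (at most 4 per list and comparison, by smallest adjusted p), the gene of each list with the largest difference in DKO hearts, and the 3 genes nearest to each called member. Marker genes outside this rule were named after their values were seen. Some genes that these rules name are not reported here. Alternatives covered background correction, scaling, filters, probe choice, array weights, prior, blocks, single slides and leaving out arrays. Arrays of the same replicate number in the control, AKT2 KO and DKO groups share slide and row, and AKT1 KO numbers mostly do not. Deviations of same-numbered arrays correlated above 0.1 in 4 of 4 DKO and control pairs (0.14 to 0.32). The same held in 4 of 4 AKT2 KO and control pairs (0.14 to 0.37), and in 1 or 2 of 4 pairs for each other combination of groups. The labels state no pairing of animals, and shared array position cannot be told apart from a pairing by number. The main fit had no block, and a block for the replicate number was run as an alternative.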

Additional observations from a re-analysis of the deposited data

Results flagged for a closer look

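Of 36 sets of 4 arrays, 1 for each group and member, 2 held a sample far from the other 3. Chance marks about 1 in 20 such sets. Srebf1 in AKT1 KO replicate 2 was at 3.18, while the other AKT1 KO arrays were at 3.02 to 3.03. Acaca in AKT2 KO replicate 4 was at 0.99, while the other AKT2 KO arrays were at 0.61 to 0.66.

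For 2 members the effect of AKT1 deletion differed with and without AKT2 deletion, by the interaction term of the limma fit. The difference was 1.53 for Scd1 (adjusted p = 1.66e-05) and 0.59 for Acly (adjusted p = 0.0013), both on the log2 scale and both higher in DKO hearts than the single knockouts add up to. These 2 of 9 members stand beside 26.0% of all genes that passed the same test, 15.9% upward and 10.1% downward.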

How the results depend on the processing

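DKO, AKT2 KO and control arrays of the same replicate number share slide and row, and no label states that their animals were paired. With a replicate block 5 members were called in DKO hearts against control, where Acaca kept its difference of 0.31 but not its call (adjusted p = 0.0568). Over all genes the block gave 6340 calls there, against 6257 without it. The block changed no other call of a member. No direction of a called value turned under any setting. With array weights, which give DKO replicate 3 a weight of 0.061 and AKT1 KO replicate 1 a weight of 0.21, 1 member was called in AKT2 KO against AKT1 KO and 6 departed from additivity. Over all genes these 2 comparisons gave 849 and 6155 calls with array weights, against 123 and 3566 in the main fit. With slide 2 alone, DKO against control and DKO against AKT2 KO gave 3 members each and the departure from additivity 1. Over all genes they gave 2464, 1903 and 188 calls, against 6257, 5780 and 3566 in the main fit. Leaving out DKO replicate 3, alone or with AKT1 KO replicate 1 (chosen after seeing the data), gave 5 members in the departure from additivity, against 2 with all arrays. Calls over all genes rose as well in these settings, to 4808 and 5327, against 3566. When each array was left out in turn, called members numbered 4 to 6 in DKO against control, beside 5276 to 7020 calls over all genes. They numbered 4 to 7 in DKO against AKT2 KO (4887 to 6514 over all genes) and 4 to 6 in DKO against AKT1 KO (5660 to 7365). The departure from additivity gave 2 to 5 (2890 to 4808). AKT2 KO against control, AKT1 KO against control and AKT2 KO against AKT1 KO gave 0. The causes were not tested.

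The DKO calls of Scd1, Lss and Cyp51 against control held in every setting where the gene was tested, and that of Acly in all but slide 2 alone. The Scd2 call was also lost under quantile normalization (adjusted p = 0.0605) and with the authors' values (adjusted p = 0.0606). Acaca also missed the threshold under normexp background (adjusted p = 0.0703) and with the mean of its probes (0.22, adjusted p = 0.133). Over all genes, DKO against control gave 2464 calls on slide 2 alone and 8265 with array weights, against 6257. Dim signal limits Lss, whose brightest probe was not tested in the fit of probes detected on all 16 arrays.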
